A study of Homo sapiens with 9 samples.

Results

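The mRNAs of MAPK14, E2F3, CDKN1B, ATXN1 and DEK, which are known from earlier work as targets of Pumilio proteins, were examined for peaks of PUM2 and of 9 other RNA-binding proteins (RBPs). They were taken by gene symbol and not by a measured value, though earlier results of these data were known when they were chosen. They are 5 of the 19249 genes with an annotated 3′ UTR in GENCODE release 44 on GRCh38. Every peak of every library that overlapped 1 of these genes on its strand was taken.

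The peaks came from antibody-barcode eCLIP (ABC). In this assay cells are crosslinked with UV light, each antibody carries a DNA barcode, and the barcode is ligated to the RNA held by the antibody's target, so that 10 RBPs can be profiled in 1 tube. Pools of 10 antibodies (DDX3, EIF3G, FAM120A, IGF2BP2, LIN28B, PRPF8, PUM2, RBFOX2, SF3B4 and ZC3H11A) were made from K562 cells, a human erythroleukaemia line (3 pools), and from HEK293T cells, a human embryonic kidney line that the labels call HEK293T and the study's methods HEK293XT (2 pools), which gave 50 libraries. Single antibodies were used for RBFOX2 in HEK293T (2 libraries) and SLBP in K562 (2 libraries). The labels give no treatment or genetic change for these cells, and they do not say whether pools of a line came from separate cultures. The p-values given compare PUM2 with the other RBPs of the same pools. They do not measure the spread between pools or cultures.

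Pumilio proteins bind single-stranded RNA through a curved array of PUF repeats that reads a short element with a UGUA core, mostly in 3′ UTRs, and they recruit the CCR4-NOT complex, which shortens the poly(A) tail and lowers the level and translation of the mRNA. MAPK14 encodes the stress kinase p38α, E2F3 a transcription factor of the G1 to S transition, CDKN1B the cyclin-dependent kinase inhibitor p27, ATXN1 the protein whose expanded polyglutamine tract causes spinocerebellar ataxia, and DEK a chromatin protein.

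The 3′ UTRs of the 5 mRNAs held 12 Pumilio elements, written here as TGTANATA in the DNA sequence of the RNA's strand. The letters are common, as 28.0% of all genes with a 3′ UTR held at least 1. The elements with a peak of any pooled library within 50 nt are shown first as 30-nt windows of GRCh38, read 5′ to 3′ on the gene's strand, with the element in capitals. For 4 of them 1 or more PUM2 peaks lay within 50 nt.
E2F3 element 1 (chr6:20493262-20493291, plus strand, PUM2 peak in 1 pool): acgtgtagatcTGTAAATAaaattgcagta
CDKN1B element 2 (chr12:12721269-12721298, plus strand, PUM2 peak in 1 pool): tgtactacctgTGTATATAgtttttacctt
CDKN1B element 3 (chr12:12722085-12722114, plus strand, PUM2 peak in 1 pool): aagtgtacctgTGTACATAactctgtaaaa
DEK element 3 (chr6:18225099-18225128, minus strand, PUM2 peaks in 3 pools): aaacaattggtTGTATATAaagttttttta
MAPK14 element 1 (chr6:36109027-36109056, plus strand, peaks of other RBPs): atatttgaaacTGTAAATAtgtttgtgcct
MAPK14 element 2 (chr6:36109064-36109093, plus strand, peaks of other RBPs): agagaagaaagTGTAGATAgttaaaagact
E2F3 element 2 (chr6:20493583-20493612, plus strand, peaks of other RBPs): atgatggatttTGTAAATAgatttgttaca
DEK element 2 (chr6:18225171-18225200, minus strand, peaks of other RBPs): tctcctgcatgTGTATATAtgtcaaattgt

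The other 4 elements had no peak of any pooled library within 50 nt, and are shown because they hold the same letters.
CDKN1B element 1 (chr12:12719800-12719829, plus strand, in an intron of the main transcript): aatctgatcacTGTAAATAgctaatttgaa
ATXN1 element 1 (chr6:16301036-16301065, minus strand): acatgttttttTGTATATAgaaatttgtca
DEK element 1 (chr6:18257079-18257108, minus strand, in an alternative 3′ UTR inside the gene): tgttattatacTGTACATAtgacttagtat
DEK element 4 (chr6:18224124-18224153, minus strand): tatcttataggTGTATATAgcatttcctta
The TGTATATA version was found both among the elements with PUM2 peaks (CDKN1B element 2 and DEK element 3) and among those without any peak (ATXN1 element 1 and DEK element 4).

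The PUM2 libraries were shallow, which bears on every value below. They held 938 to 2973 merged peaks with 10462 to 34383 reads in peaks, against 2298 to 206869 peaks and 31174 to 2354850 reads in the other 45 pooled libraries, and PUM2 took 0.865% to 1.03% of the reads of a pool. A peak had at least 3 reads. On the scale used here, reads per 100000 reads in peaks of the library, the smallest value a PUM2 library could show was therefore 8.73 to 28.7, against 0.127 to 9.62 for the other libraries. A PUM2 value of 0 means that no peak of 3 reads was called, and does not place PUM2 below another RBP. Likewise the value of a single 3-read PUM2 peak lay above most values of the other RBPs, so that a high rank of PUM2 on this scale carries little weight. In HEK293T pool 1 PUM2 held 18005 of 5252609 reads in peaks but 0.969% of all reads of the pool. A scale of reads in peaks thus raised its values there. The cell lines were as titled: reads in genes that mark K562 cells made up 165 to 214 per 100000 in the K562 pools and 0.071 to 0.495 in the HEK293T pools, although the cell line tag of the HEK293T pools reads K562. Over all genes 26.0% of all PUM2 3′ UTR peaks in the 5 pools lay within 50 nt of TGTANATA, against 3.47% of those of the other 9 RBPs.

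PUM2 had 25 peaks in the 5 genes, of which 12 lay in 3′ UTRs, 7 in coding sequence, 3 in 5′ UTRs and 3 in introns. The 3′ UTR peaks were in E2F3 (4 peaks in 2 pools), CDKN1B (2 peaks in 2 pools) and DEK (6 peaks in 3 pools), and none was in MAPK14 or ATXN1. Of all 8523 genes tested below, 12.6% had a PUM2 3′ UTR peak in at least 1 pool and 4.68% in at least 2 pools. Of the 12 peaks 6 lay within 50 nt of an element, and 3 of these covered it. The other 9 RBPs had 390 3′ UTR peaks in the 5 genes, of which 64, or 16.4%, lay within 50 nt of an element. The first K562 pool, whose PUM2 library was the shallowest, had no PUM2 3′ UTR peak in any of the 5 mRNAs.

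**Figure D1:**
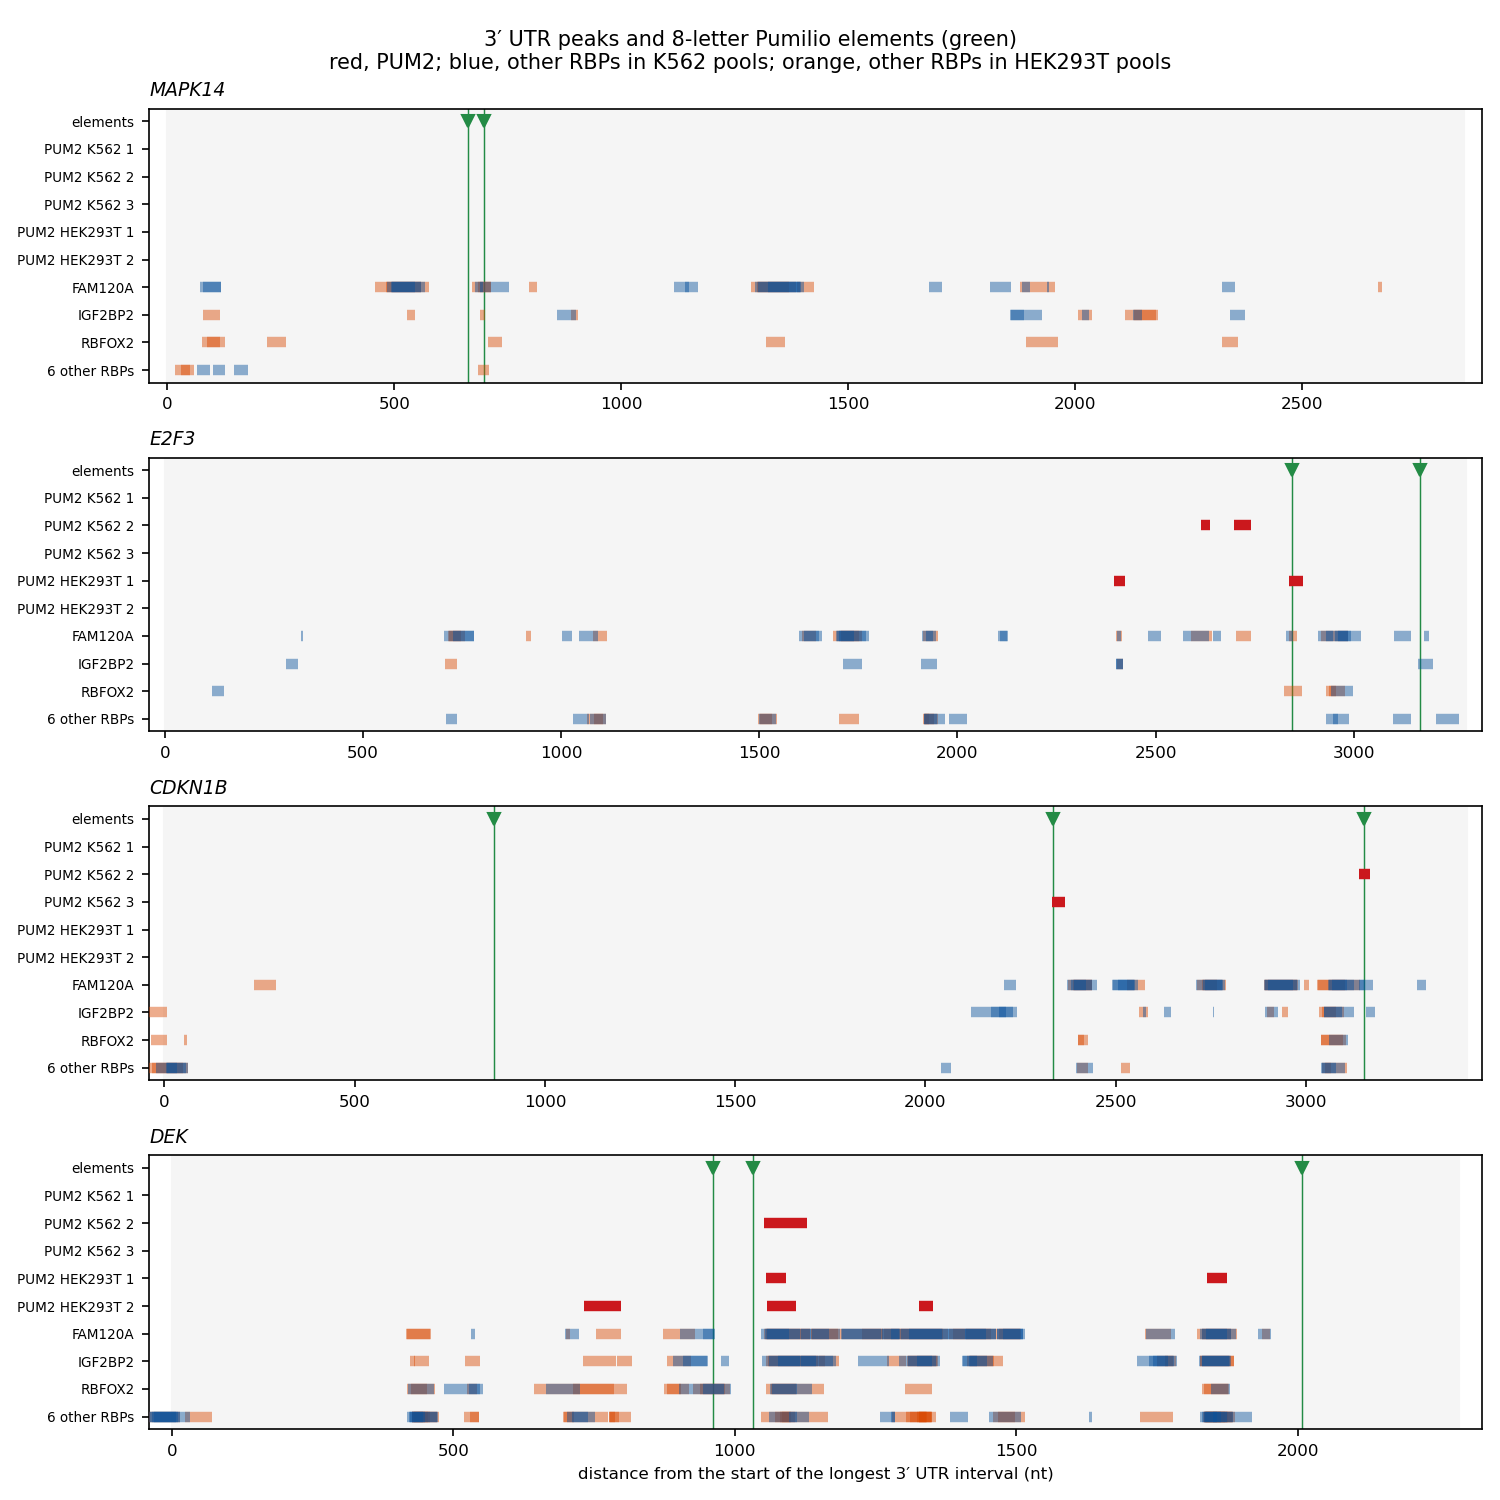
Positions of 3′ UTR peaks along the longest 3′ UTR interval (shaded) of MAPK14, E2F3, CDKN1B and DEK, in nt from its start on the gene's strand. Green lines mark the Pumilio elements in that interval (DEK element 1 lies outside it), red bars are PUM2 peaks with 1 row per pool, and blue (K562) and orange (HEK293T) bars are peaks of the other RBPs over all pools. PUM2 peaks of 3 pools overlap just 3′ of DEK element 3, those of E2F3 and CDKN1B differ in place between pools, and MAPK14 has none.

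E2F3 (ENSG00000112242.16, chr6:20401879-20493714, plus strand) has a 3′ UTR of 3284 nt with 2 elements. The PUM2 3′ UTR value was 0 in K562 pools 1 and 3 and in HEK293T pool 2, 46.4 reads per 100000 in K562 pool 2 and 38.9 in HEK293T pool 1. The highest other RBP of a pool was ZC3H11A, an mRNA export factor, at 8.26 and 6.01 in K562 pools 1 and 2, FAM120A, an RNA-binding scaffold protein, at 7.55 in K562 pool 3, and LIN28B, known for blocking let-7 maturation, at 4.51 and 5.40 in the HEK293T pools. PUM2 was thus high in 1 pool of each line and without a peak in the other 3. In HEK293T pool 1 a peak of 3 reads (chr6:20493267-20493303) covered element 1, and a peak of 4 reads (chr6:20492825-20492855) lay 418 nt from it. In K562 pool 2 the peaks of 4 and 3 reads (chr6:20493130-20493172 and chr6:20493046-20493069) lay 101 and 204 nt from element 1. No PUM2 peak of 1 pool overlapped one of the other, and no PUM2 peak lay at element 2.

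CDKN1B (ENSG00000111276.12, chr12:12685498-12722369, plus strand) has a 3′ UTR of 3423 nt with 3 elements. The PUM2 3′ UTR value was 0 in K562 pool 1, 19.9 in K562 pool 2, 22.8 in K562 pool 3 and 0 in both HEK293T pools. Each of the nonzero values was a single peak of 3 reads that covered an element, element 3 in K562 pool 2 (chr12:12722088-12722115) and element 2 in K562 pool 3 (chr12:12721280-12721315). The same mRNA therefore had 1 PUM2 peak per pool at different elements. FAM120A had 3′ UTR values of 12.02 to 19.97 in all 5 pools and 17 to 115 reads near element 2 in each pool, where no RBP other than FAM120A and PUM2 had a peak. In K562 pool 2 FAM120A (19.97) and PUM2 (19.9) had nearly the same 3′ UTR value.

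DEK (ENSG00000124795.17, chr6:18223860-18264548, minus strand) has 3582 nt of 3′ UTR in 2 intervals with 4 elements, and had the most 3′ UTR peaks of the 5 mRNAs, 171 in 41 of the 50 libraries. The PUM2 3′ UTR value was 0 in K562 pool 1, 99.5 in K562 pool 2, 0 in K562 pool 3, and 50.0 and 40.7 in HEK293T pools 1 and 2. IGF2BP2, a reader of methylated mRNA that stabilises its targets, had 33.1 to 48.2 in all 5 pools, and FAM120A 17.9 to 42.8. PUM2 was highest of the 10 RBPs in the 3 pools where it had a peak. In HEK293T it led IGF2BP2 by little, 50.0 against 48.2 and 40.7 against 34.5.

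PUM2 peaks of the 3 pools overlapped just 3′ of DEK element 3. In K562 pool 2 the peak had 15 reads, the most of any PUM2 peak in the 5 mRNAs, and spanned chr6:18225018-18225095, which starts 15 nt past the element on the minus strand. In the HEK293T pools it had 5 reads each at chr6:18225055-18225091 and chr6:18225037-18225088, 19 and 22 nt past the element. The peaks shared 34 to 52 nt between pools. PUM2 values within 50 nt of the element were 99.5 in K562 pool 2, 27.8 in HEK293T pool 1 and 14.5 in HEK293T pool 2. The element was not particular to PUM2, since 22 libraries had a peak within 50 nt of it, those of FAM120A and IGF2BP2 in all 5 pools and those of RBFOX2, a splicing regulator, in 4.

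**Figure D2:**
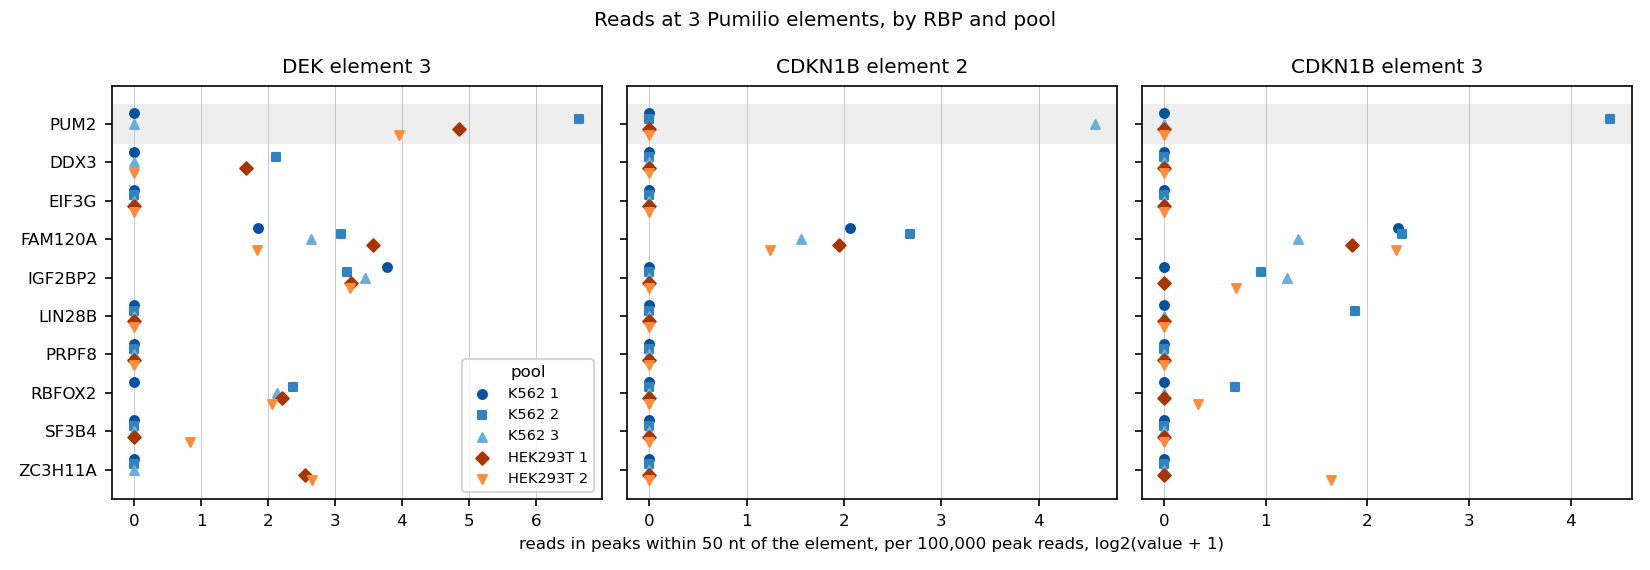
Reads in peaks within 50 nt of DEK element 3, CDKN1B element 2 and CDKN1B element 3 for each RBP and pool, as log2(value + 1) with the value in reads per 100000 reads in peaks. PUM2 (grey band) has 3 pools above 0 at DEK element 3 and 1 pool above 0 at each CDKN1B element, and a value of 0 stands for no peak of 3 reads. At the CDKN1B elements PUM2 lies to the right of the other RBPs. Both values there are of 3 reads, the smallest those PUM2 libraries could show, so that any PUM2 peak of those pools would lie to the right.

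MAPK14 (ENSG00000112062.12, chr6:36027782-36111236, plus strand) had no PUM2 3′ UTR peak in any of the 5 pools. Its 3′ UTR of 2869 nt holds 2 elements close to each other and had 55 peaks of other RBPs in 19 libraries. FAM120A was the highest in each pool, at 3.48 to 6.55. All these values are under the 8.73 to 28.7 that 3 reads give in a PUM2 library, so that PUM2 at such a level was not detectable at this depth. At the elements 7 libraries had peaks, with values of at most 1.03.

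ATXN1 (ENSG00000124788.19, chr6:16299112-16761491, minus strand) has the longest 3′ UTR of the 5, 7217 nt, with 1 element. No K562 library had a peak in it, and the 10 pooled libraries that had 1 were all from the HEK293T pools and none was of PUM2. The 2 single-antibody RBFOX2 libraries had 7 and 3 peaks there. LIN28B was highest, at 18.1 and 20.1 in the HEK293T pools. No library had a peak within 50 nt of the element. The PUM2 peaks in ATXN1 were 1 in each HEK293T pool, of 3 and 5 reads, in introns at different places.

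**Figure D3:**
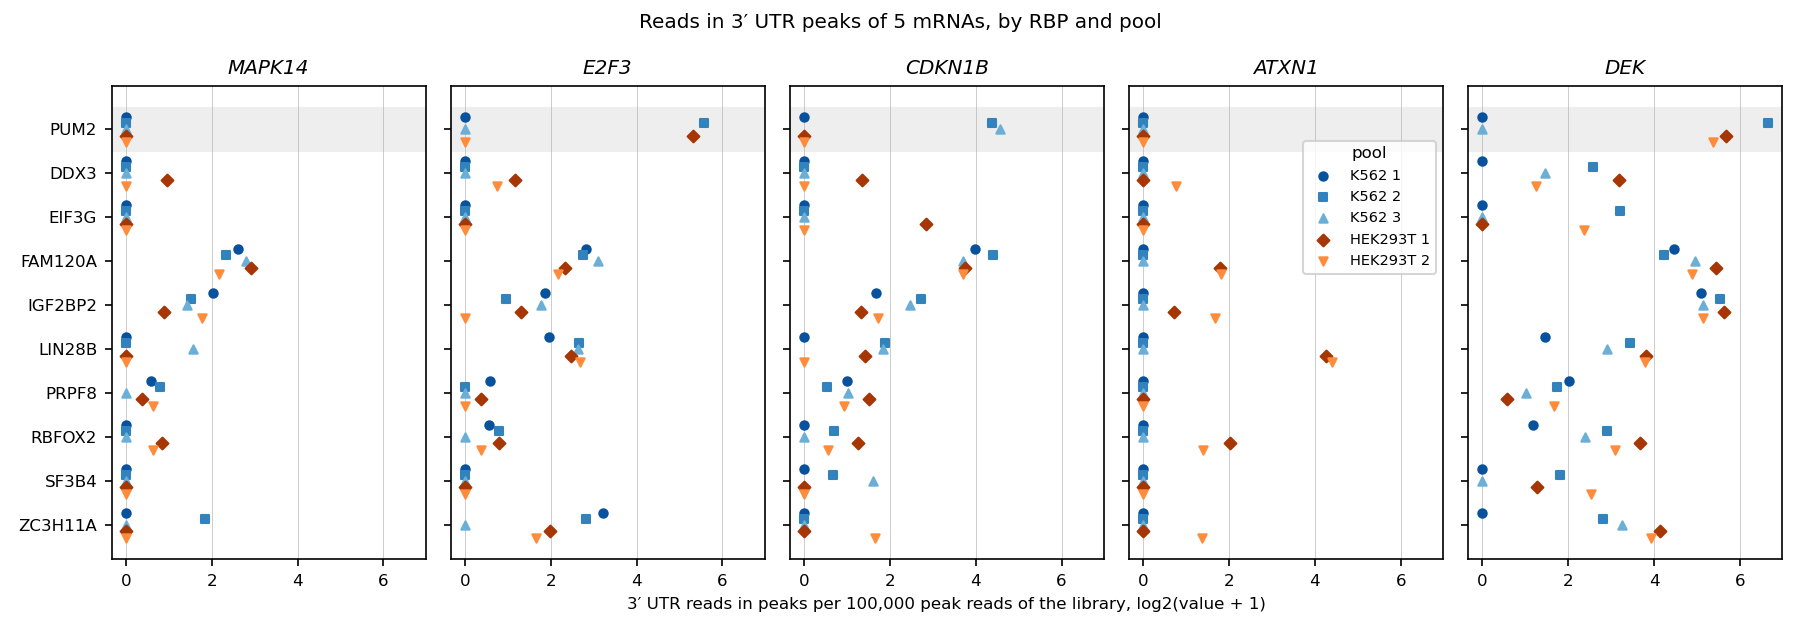
Reads in 3′ UTR peaks of the 5 mRNAs for each RBP (rows) and pool (symbols), as log2(value + 1) with the value in reads per 100000 reads in peaks of the library. PUM2 (grey band) is above 0 in 2 pools for E2F3, 2 for CDKN1B and 3 for DEK and at 0 in all 5 for MAPK14 and ATXN1.

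Whether PUM2 stood above the other RBPs of its pool was tested for every gene with a 3′ UTR peak in at least 5 of the 50 libraries. The PUM2 excess was the log2(value + 1) of PUM2 minus the mean of the other 9 RBPs, averaged over pools, and its one-sided p came from an exact permutation of the PUM2 label within pools (100000 choices, smallest p 1e-05), with Benjamini-Hochberg adjustment over all genes tested. None of the 5 mRNAs passed an adjusted p of 0.05 in the whole 3′ UTR, where 5 of 8523 genes (0.0587%) were called. By the exact permutation test the excess was 1.14 for E2F3 (p = 0.0587, adjusted p = 1), 0.87 for DEK (p = 0.157, adjusted p = 1) and 0.68 for CDKN1B (p = 0.169, adjusted p = 1). It was -0.64 for MAPK14 and -0.45 for ATXN1, which had no PUM2 peak to set against those of the other RBPs. The median over the 5 mRNAs was 0.68, against -0.35 over all genes tested. Only 12.6% of all genes tested had a PUM2 3′ UTR peak in any pool, and without one the excess cannot be above 0. The medians therefore mostly reflect which genes had such a peak. All 5 had an unadjusted p above 0.05, below which 1.48% of genes lay. Without K562 pool 2 the value was 0.31 for E2F3, 0.22 for DEK and 0.05 for CDKN1B, without HEK293T pool 1 it was 0.39 for E2F3 and 0.45 for DEK, without HEK293T pool 2 it was 0.54 for DEK, and without K562 pool 3 it was -0.0023 for CDKN1B. With library totals from the complement control, described below, it was 0.63 for E2F3, 0.16 for DEK and 0.14 for CDKN1B. With 4 pools no gene was called, but 18 genes would have had to share the smallest p of 1e-04 to pass the adjustment, and 100 to 137 genes still had an unadjusted p below 0.05.

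Within 50 nt of the elements 22 of 3216 genes (0.684%) were called, again none of the 5. DEK had an excess of 1.93 (exact permutation p = 0.0151, adjusted p = 0.486) and CDKN1B one of 1.32 (exact permutation p = 0.0282, adjusted p = 0.776). These were the 2 of the 5 mRNAs below an unadjusted p of 0.05, where 3.95% of the genes tested lay. Neither stayed there without K562 pool 2, with 1.08 for DEK (exact permutation p = 0.109) and 0.74 for CDKN1B (exact permutation p = 0.159), nor did CDKN1B without K562 pool 3 (0.60, exact permutation p = 0.192) or DEK without HEK293T pool 1 (1.58, exact permutation p = 0.0572). With library totals from the complement control DEK had 1.15 (exact permutation p = 0.0637) and CDKN1B 0.76 (exact permutation p = 0.0898). E2F3 had 0.67 (exact permutation p = 0.109, adjusted p = 1), MAPK14 had -0.11 and ATXN1 had 0.00. The median over the 5 was 0.67, against -0.02 over all genes tested. Of these 3216 genes 10.0% had a PUM2 peak at an element in at least 1 pool, and the excess of the others cannot be above 0. The value of DEK turned to -0.20 when a peak had to cover the element, since its PUM2 peaks started 15 to 22 nt past it, and that of E2F3 to -0.19 without HEK293T pool 1, the only pool with its PUM2 peak at an element. The number of genes called at elements was 0 without K562 pool 2 and 0 without HEK293T pool 2, and 7 without K562 pool 3 or without HEK293T pool 1, in tests where 7 genes must share the smallest p for a call at that p.

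**Figure D4:**
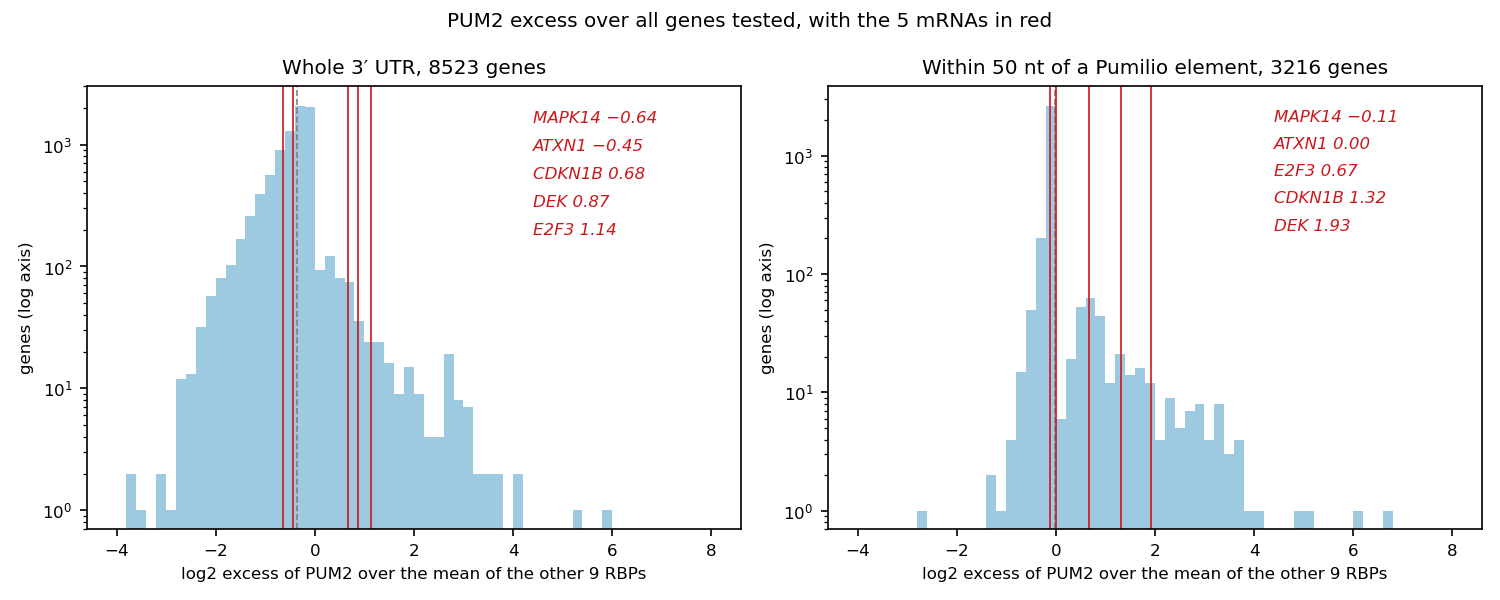
Distribution of the PUM2 excess (log2, x axis) over all genes tested (number of genes, log axis) in whole 3′ UTRs (8523 genes) and within 50 nt of Pumilio elements (3216 genes), with the 5 mRNAs as red lines and the median of all genes dashed. E2F3, CDKN1B and DEK lie above 0 in both panels, at 1.14, 0.68 and 0.87 on the left and 0.67, 1.32 and 1.93 on the right.

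Within the cell lines the values differed by gene. The difference between lines was not tested, as an exact permutation of 3 pools against 2 cannot give a two-sided p below 0.1. In K562 the 3′ UTR excess was 1.94 for CDKN1B (exact permutation p = 0.043, smallest possible 0.001), 0.80 for E2F3 (exact permutation p = 0.221) and -0.14 for DEK (exact permutation p = 0.536). In HEK293T it was 2.40 for DEK (exact permutation p = 0.01, the smallest that 2 pools allow), 1.66 for E2F3 (exact permutation p = 0.1) and -1.22 for CDKN1B. No call was possible in practice, since 171 genes in K562 and 1705 in HEK293T would have had to share the smallest p to pass the adjustment, while 101 and 87 genes (1.19% and 1.02%) had an unadjusted p below 0.05. Single pools set these values: the K562 value of CDKN1B was 3.29, 1.33 and 1.22 without pool 1, 2 and 3 (exact permutation p = 0.02, 0.17 and 0.26), without K562 pool 2 the K562 value was -1.03 for E2F3 and -1.96 for DEK, without K562 pool 1 or 3 that of DEK was 0.58 or 0.97, and without HEK293T pool 1 the HEK293T value of E2F3 was -0.85. With library totals from the complement control CDKN1B in K562 had 1.00 (exact permutation p = 0.136) and DEK in HEK293T 1.24 (exact permutation p = 0.19).

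Each PUM2 peak was also compared with the reads of the other 9 libraries at the same place, the complement control (CC), which sets the PUM2 share of the reads at the peak against its share of the pool. A peak enters only with 3 or more PUM2 reads, which sets a floor under the fold that is higher in shallower libraries, so that the folds are best compared within a pool. With limits of P below 0.001 and fold above 8, 37.6% of all PUM2 3′ UTR peaks with a CC value in the 5 pools passed, with 54.5%, 45.6% and 41.0% in the K562 pools and 33.5% and 28.5% in the HEK293T pools, lowest in the deepest PUM2 library and highest in the shallowest. All 4 peaks in E2F3 and both in CDKN1B passed, and none of the 6 in DEK. In E2F3 the folds were 31.4 and 61.3 in HEK293T pool 1 and 36.8 and 40.2 in K562 pool 2, with 5 to 13 reads of all other RBPs together at a peak. In CDKN1B they were 12.8 in K562 pool 2, beside 26 reads of the other RBPs, and 35.9 in K562 pool 3, beside 8. The order of the mRNAs by CC fold thus differed from that by read number, as these peaks had only 3 or 4 PUM2 reads.

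The 15-read DEK peak of K562 pool 2 had a CC fold of 7.85, just below the limit, beside 211 reads of the other RBPs. The DEK peaks of the HEK293T pools had folds of 1.38 to 3.33 beside 181 to 271 reads of the others. At the overlapping peaks past element 3 the fold was 7.85 in K562 pool 2, 2.53 in HEK293T pool 1 and 1.85 in HEK293T pool 2, so that the place with the most PUM2 reads in the 5 mRNAs was also one where the other RBPs had many. Over the external background, the comparison the authors deposited for all libraries, 11 of the 12 peaks passed the same limits, as did 82.7% of all PUM2 3′ UTR peaks. There 100.0% of PUM2 3′ UTR peaks in each K562 pool and 68.4% and 66.7% in the HEK293T pools passed.

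**Figure D5:**
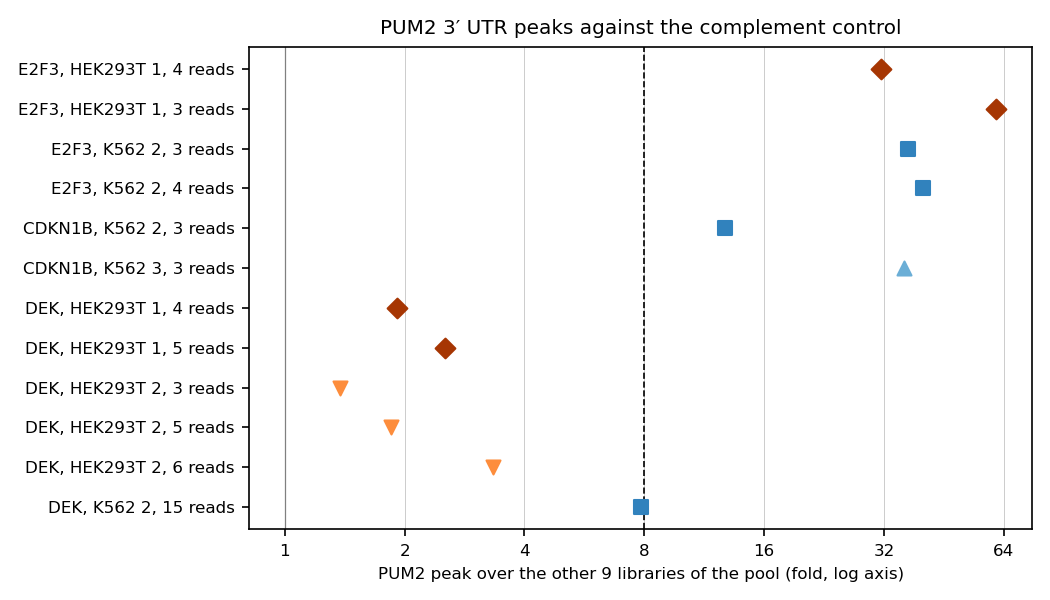
Fold of each PUM2 3′ UTR peak in E2F3, CDKN1B and DEK over the other 9 libraries of its pool (x axis, log scale), with the pool and the PUM2 reads at the left. All E2F3 and CDKN1B peaks lie right of the 8-fold limit (dashed) and all DEK peaks left of it, the closest at 7.85.

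Of the 58 PUM2 reads in 3′ UTR peaks of the 5 mRNAs, 34 were within 50 nt of an element, or 58.6% (95% exact binomial interval 44.9% to 71.4%, for counting error only, with reads of 1 peak not independent). By pool they were 18 of 25 in K562 pool 2, 3 of 3 in K562 pool 3, 8 of 16 in HEK293T pool 1 and 5 of 14 in HEK293T pool 2. The other 9 RBPs had 1733 of 6414 reads there, or 27.0%, with 35.6% for RBFOX2, 28.6% for IGF2BP2, 27.9% for FAM120A and 0.0% for PRPF8, a core spliceosome protein. In the pools with PUM2 reads, PUM2 did not always have the highest share: in HEK293T pool 2 it had 35.7% and ZC3H11A 36.8% (14 of 38 reads), and in K562 pool 2 it had 72.0% and DDX3, an RNA helicase, 66.7% (6 of 9 reads). The share of PUM2 lay above those of FAM120A and RBFOX2, the RBPs with over 500 reads there beside IGF2BP2, in all 4. The exact intervals of PUM2 and FAM120A were apart in K562 pools 2 and 3 and overlapped in both HEK293T pools, and those of PUM2 and RBFOX2 overlapped in all 4, as in K562 pool 2 with 72.0% (50.6% to 87.9%) against 61.9% (48.8% to 73.9%). The PUM2 reads of K562 pool 3 were a single peak, and 15 of the 18 in K562 pool 2 were 1 DEK peak. The intervals treat reads as independent, so that they cannot separate the RBPs. Over all genes 25.4% to 36.3% of the 3′ UTR reads of a PUM2 library were at elements, against 0.847% to 4.19% in the other 45. All 5 mRNAs hold the letters, as 28.0% of genes do, so that the shares of these mRNAs cannot be set against those over all genes. At ACAANATA, which has other letters in place of TGT and lies in 17.5% of genes, PUM2 had 4 of its 58 reads. CDKN1B and DEK held 2 such sites each and MAPK14, E2F3 and ATXN1 0, so that the 2 counts of reads are not alike in sites.

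Outside the 3′ UTRs the PUM2 peaks of DEK coding sequence included a pair from HEK293T pool 2 (8 reads) and K562 pool 1 (3 reads) that shared 30 nt, with CC folds of 2.09 and 4.53. The K562 pool 1 peak was the only PUM2 peak of that pool in the 5 genes.

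Among the mRNAs of the Pumilio pathway (17 genes: the Pumilio proteins, their NANOS partners, CCR4-NOT subunits and TOB proteins), 14 were tested in the 3′ UTR with none called and 8 at elements with 1 called, the mRNA of PUM2 itself. The PUM2 mRNA had PUM2 3′ UTR values of 0, 106 and 22.8 in K562 pools 1 to 3 and of 22.2 and 49.4 in the HEK293T pools. At elements its values were 0, 53.05 and 22.82 in K562 pools 1 to 3 and 22.22 and 8.725 in the HEK293T pools. Of these, 22.82 and 8.725 are values of 3 reads, the smallest those libraries could show. Its excess at elements was 3.28 (exact permutation, adjusted p = 0.0241). As given above, no gene was called at elements without K562 pool 2 or without HEK293T pool 2. No NANOS, CCR4-NOT or TOB mRNA had a PUM2 3′ UTR peak. The PUM2 mRNA thus had PUM2 3′ UTR peaks in 4 pools, against at most 3 for the 5 mRNAs. The median 3′ UTR excess of the 14 tested was -0.58.

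Of 14 relatives of the 5 genes (kinases, E2F and CDKN1 family members and ATXN1L), 11 were tested in the 3′ UTR and 4 at elements, with none called. A PUM2 3′ UTR peak was in CDKN1A, which encodes p21, in 1 pool. The other E2F mRNAs and ATXN1L had none.

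The genes whose 3′ UTR values over the 50 libraries were most like those of a member were found by Pearson's r on log2(value + 1), among all genes tested, as a description. For DEK they were MTDH (0.85), GSK3A (0.84) and SYPL1 (0.82), each with a PUM2 peak in 3 pools. For CDKN1B they were TLCD4 (0.84), RAB3GAP2 (0.82) and BNIP2 (0.82), each with a PUM2 peak in 2 pools. For E2F3, with PUM2 peaks in 2 pools, the values were lower, 0.70 for RPA2, MTF2 and CTDSP1, which had a PUM2 peak in 1, 3 and 3 pools. The 50 libraries include those of PUM2, so that like PUM2 peaks are part of the likeness, and the libraries share pools and differ widely in depth, which bears on these correlations.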

How the data were processed

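The authors trimmed reads (cutadapt 2.8 in the submitters' processing notes), aligned them to GRCh38 (STAR 2.7.6 in the same notes), collapsed PCR copies and ran CLIPper for peak calling, and for each peak the authors deposited a p-value and a display score. Their merged peaks carry a −log10 P and a log2 fold over an external background, as deposited, and the pooled libraries also values over the CC, either a chi-squared value and the matching p-value or, in K562 pool 3, a −log10 P and a log2 fold. The RBP of a library came from the file it was deposited in, as the labels list the 10 antibodies of a pool together. Reads per peak were recovered as whole numbers from the log2 fold and −log10 P. Where none fitted, they came from the peak's name or the nearest whole-number ratio. Recovered and named reads were equal in 96.9% to 99.5% of the peaks that had both. In K562 pool 2 and both HEK293T pools no peak had both, so that their PUM2 reads were not checked in this way. The reads of the other 9 libraries at a peak were solved from the CC values, with whole solutions for 86.2% to 98.6% of PUM2 peaks.

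Values are reads in 3′ UTR peaks (GENCODE release 44, any overlap on the strand) per 100000 reads in peaks of the library, with a pseudocount of 1 and a window of 50 nt around elements. A run of touching or overlapping peaks was counted once, by its highest read number, in the values and in the library totals. The totals given as reads in peaks are thus below the sum over every peak, as for PUM2 in HEK293T pool 1 with 18005 against 22695. Tests were exact permutations within pools in Python 3.11.15 (numpy 2.4.6, scipy 1.17.1). On Poisson reads simulated from the mean rate of each gene, the 3′ UTR test called 22 of 100 genes with PUM2 raised 4-fold. It called 96 of 100 raised 16-fold and 2 of 8323 not raised. The raised genes were drawn from those with higher read rates. Samples were grouped by title. The genes and lists were chosen with earlier results of these data known. Named genes were the 5 mRNAs, pathway and relative genes with PUM2 3′ UTR peaks in at least 2 pools (CDKN1A, with 1, was named after its value was seen, and some members of these lists are not reported here), and the 3 genes most like each member with peaks in at least 2 pools. A pool number marks antibodies of 1 tube, so PUM2 and the other RBPs are paired by design. Depth is that of peaks only, as reads outside peaks were not used.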

Additional observations from a re-analysis of the deposited data

Results flagged for a closer look

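Outside the 3′ UTRs, PUM2 had a peak at the MAPK14 5′ UTR in a pool of each line, with 5 reads in HEK293T pool 1 (chr6:36027927-36027949, CC fold 18.2) and 3 reads in K562 pool 3 (chr6:36027928-36027946, CC fold 7.75, below the limit). The peaks shared 19 nt, and no 8-letter element was looked for there. In the single-antibody RBFOX2 libraries, which no comparison above used, DEK had 3′ UTR values of 9.79 and 13.5 reads per 100000, with peaks of 78 and 69 reads that span the place of the PUM2 peaks past element 3 (chr6:18225017-18225098 and chr6:18224962-18225094).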

How the results depend on the processing

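None of the 5 mRNAs was called under any alternative: the lowest adjusted p was 0.228, and of the 150 values of E2F3, CDKN1B and DEK 141 kept their sign, 1 was 0 and 8 turned. MAPK14 and ATXN1, with no PUM2 3′ UTR read, could not turn. Some of the 150 values could not change either, and say nothing of stability. These came from other gene filters, from no replicate block, and from leaving out TGTAGATA, which E2F3, CDKN1B and DEK lack. The 8 were, in the 3′ UTR, CDKN1B without K562 pool 3 (-0.0023, range without 1 pool -0.0023 to 1.22). At elements they were E2F3 without HEK293T pool 1 (-0.19, range without 1 pool -0.19 to 0.92) and DEK with the peak required to cover the element (-0.20). In K562 they were DEK with a pseudocount of 10 (0.42) and without pool 1 or 3 (0.58 or 0.97, lowest without 1 pool -1.96) and E2F3 without pool 2 (-1.03, highest without 1 pool 1.81), and in HEK293T E2F3 without pool 1 (-0.85, and 4.16 without pool 2). The number of genes called in the 3′ UTR (5) was 20 with a pseudocount of 10, 3 by rank within the pool, 8 with no replicate block (the pool), 0 with library totals from the CC, and 0 without any 1 pool. At elements (22) it was 8 with a pseudocount of 0.1, 5 by rank, 41 with no replicate block, 13 with CC totals, 2 with the element covered, and 0 to 16 without 1 pool. By line it was 0 under each alternative, also with no replicate block, which says nothing of stability because so few label choices hardly allow a call; by exact permutation 101 genes in K562 and 87 in HEK293T had an unadjusted p below 0.05. The same limit holds in part for the counts without 1 pool. The 11 enriched PUM2 peaks were 6 over the CC and 7 to 11 without 1 pool. The PUM2 share at elements (58.6%) was 15.5% with the element covered, 6.90% at ACAANATA and 48.5% to 65.9% without 1 pool, and that of the other 9 RBPs (27.0%) was 4.76%, 11.6% and 24.2% to 28.5%, and 16.4% within 20 nt. The cause was not tested where no value shows it. CC totals, the CC limits and the fit by line without the block were chosen after seeing the data. Totals from the barcode table of the supplement were not run, as its K562 replicates could not be tied to the pools. PUM2 values rest on peaks of 3 to 15 reads, and depth limits all statements on their absence.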

Other observations

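In the ATXN1 3′ UTR LIN28B had 1 peak in each HEK293T pool, at chr6:16303406-16303466 with 32 reads and chr6:16303406-16303465 with 41 reads, beside 9 and 15 reads of the other 9 RBPs, with CC folds of 78.2 and 76.5. In the CDKN1B 3′ UTR FAM120A had a peak in both lines past element 2, with 115 reads in K562 pool 2 (chr12:12721320-12721398, CC fold 17.97) and 43 reads in HEK293T pool 1 (chr12:12721322-12721384, CC fold 10.7). Both were looked up after their values were seen.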
